A study of Rattus norvegicus with 18 samples.

Results

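The interleukin-6 (IL-6) family was followed in cultured rings of rat aorta through 7 genes, the ligands Il6 and Lif, the receptor chains Il6r, Il6st and Osmr, the transcription factor gene Stat3 and its feedback inhibitor Socs3. The members were all probe sets that the platform annotation pairs with one of these genes alone. They came to 10 of 31256 probe sets, 9 on the Affymetrix array RAE230A (array A) and 1 on RAE230B (array B), and covered 6 of the 7 genes, out of 13811 genes with a probe set of their own. That annotation paired no probe set with Osmr, a receptor chain for oncostatin M, so Osmr has no value here.

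The rings, 2 mm wide, were cut from the thoracic aorta of male Fisher 344 rats aged 5 weeks and kept in serum-free medium. At day 13 one group was given VEGF (vascular endothelial growth factor, recombinant human, 10 ng/ml), another Ang1 (angiopoietin-1, recombinant human, 100 ng/ml) together with a poly-His antibody (5 µg/ml), and the last group nothing. The untreated rings, cultured for 14 days, had no antibody, so Ang1 and the antibody cannot be told apart. The time between treatment and RNA isolation was 20 h in the sample labels and 18 h in the design text. Each RNA pooled 4 to 6 rings, which hold all the cell types of the explant, and each group had 3 RNAs. Per the design text the RNAs of a group came from 3 animals that were shared by all groups, and no label says which animal a replicate number stands for. The p-values measure the spread between these RNAs.

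IL-6 binds its alpha chain IL-6R, on the cell or in soluble form, and the pair engages gp130, the signalling chain encoded by Il6st. LIF uses gp130 as well, together with its own receptor chain. Janus kinases bound to gp130 then phosphorylate STAT3, which enters the nucleus and switches on its targets, among them Socs3, whose product binds gp130 and the kinases and ends the signal. In vessels IL-6 is made by smooth muscle cells, fibroblasts, endothelial cells and macrophages, and interleukin-1 and tumour necrosis factor are known inducers of its gene through NF-kB.

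The stretch upstream of Il6 is shown because genes of those inducers were measured on the same arrays. The RefSeq promoter table (build GRCr8) held a window for 6 of the 7 genes and none for Lif. The 250 bases before the start of Il6, on the minus strand at chr4:5894576-5894825, read 5′ to 3′ as follows, with a cAMP-response octamer (TGACGTCA, from 162 bases before the start) and a match to the NF-kB consensus (GGGATTTTCC, from 68 bases before the start) in capitals.
Il6: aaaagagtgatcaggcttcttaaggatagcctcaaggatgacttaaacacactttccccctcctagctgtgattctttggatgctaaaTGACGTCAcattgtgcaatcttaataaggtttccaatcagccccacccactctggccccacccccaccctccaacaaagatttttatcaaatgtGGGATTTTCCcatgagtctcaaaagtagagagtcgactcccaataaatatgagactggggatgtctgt
Both motifs were chosen after this sequence had been seen and do not overlap each other. On either strand the NF-kB consensus was present in 1185 of 33469 windows of this length (3.54%) and the octamer in 531 (1.59%). Among the other 5 genes the octamer was found in none and the NF-kB consensus in Socs3 alone, from 161 bases before its start (GGGGTGCCCC). The STAT motif TTCNNNGAA, present in 7.67% of all windows, was found in none of the 6. A match is a description of letters, and their absence from a window says nothing of a factor's action.

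Of the 9 RNAs, 2 stood apart from the rest. On array A the median correlation with the other arrays was 0.817 for Ang1 replicate 2 and 0.899 for untreated replicate 2, against 0.934 to 0.965 for the other 7. The same RNAs had 0.662 and 0.848 on array B, where the others had 0.882 to 0.909. The signal of the 3' control probe set of Gapdh on array A was 446.9 in Ang1 replicate 2 and 64.4 in untreated replicate 2, and 2218 to 3247 in the other 7. The actin ratio of 3' to 5' signal, a sign of RNA quality, was 8.79 to 12.4 after VEGF, 6.18 to 8.29 after Ang1 and 1.86 to 7.70 in untreated rings on array A. For untreated replicate 1 the labels record 2 cycles of target labelling, unlike for the other RNAs. Levels below are log2(signal + 16) after quantile normalisation within the array type, differences are in log2 units with their standard error (SE), and values without both libraries that stand apart are given where they matter.

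No tested member of the family passed the test for a difference from untreated rings after VEGF or after Ang1. Of the 10 probe sets, 7 passed the filter on low values, all on array A, and stand for Il6, Il6st, Stat3 and Socs3. In the 21 tests on these 7, 0 passed the adjusted threshold of 0.05 and 0 had an unadjusted p below 0.05 (limma, smallest adjusted p = 0.951, smallest unadjusted p = 0.0895). Over all 9520 probe sets tested on array A the adjusted threshold called 0% in each comparison, and an unadjusted p below 0.05 was reached by 1.66% for VEGF against untreated, 3.18% for Ang1 against untreated and 1.99% for VEGF against Ang1. Both treatments were set against the same 3 untreated RNAs. As rings were pooled whole, fewer cells of a type and less RNA per cell cannot be told apart in any of these values.

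Il6, the gene of the founding cytokine of the family (1369191_at), had deposited signals of 98.9, 57.4 and 120.2 after VEGF, 105.3, 68.9 and 191.2 after Ang1, and 72.0, 93.6 and 69.7 in untreated rings. The highest and the second lowest of these 9 signals were both from Ang1-treated rings, and the 3 groups overlapped. On the log2 scale Il6 averaged 6.72 ± 0.44 after VEGF, 6.81 ± 0.95 after Ang1 and 6.74 ± 0.23 in untreated rings (SD, n = 3 each). The difference from untreated rings was -0.02 ± 0.45 for VEGF and 0.07 ± 0.45 for Ang1 (SE), with 95% intervals of -1.01 to 0.97 and -0.92 to 1.07. Ang1 replicate 2 was the lowest RNA on the log2 scale, at 5.81, and without it and untreated replicate 2 the Ang1 difference was 0.73 (limma, unadjusted p = 0.0743, adjusted p = 0.998).

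Lif, which encodes leukaemia inhibitory factor (1368804_at), lay below the filter and was not tested. Its log2 levels were 5.78, 5.98 and 6.82 after VEGF, 6.34, 7.80 and 6.31 after Ang1, and 5.44, 6.42 and 6.43 in untreated rings. The level of 7.80, a deposited signal of 256.0, stands alone and is that of Ang1 replicate 2, one of the libraries that stand apart. The level averaged 6.19 ± 0.55 after VEGF, 6.82 ± 0.85 after Ang1 and 6.09 ± 0.57 in untreated rings (SD, n = 3). The Ang1 mean was above the untreated mean by 0.73, and by 0.23 without Ang1 replicate 2. VEGF-treated and untreated rings differed by 0.10 in Lif, less than the SD of either group.

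**Figure D1:**
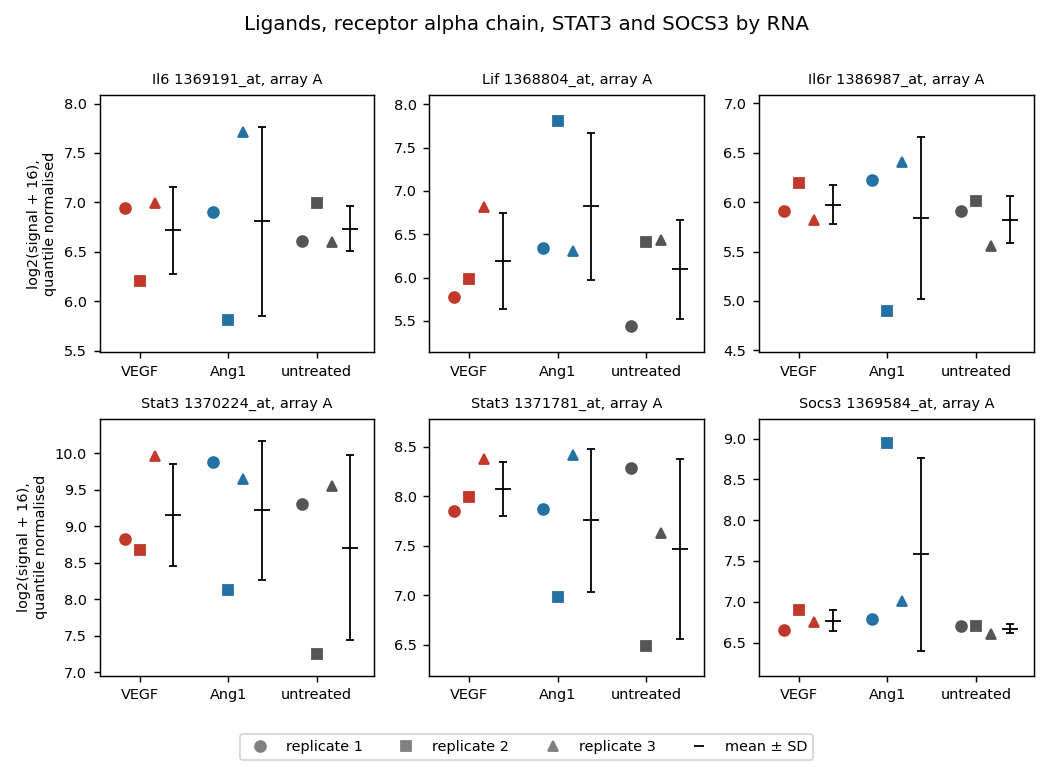
Log2 level (vertical axis, log2 of signal + 16, quantile normalised) of Il6, Lif, Il6r, both Stat3 probe sets and Socs3 in VEGF, Ang1 and untreated rings. Each symbol is 1 RNA, its shape gives the replicate, and bars are mean ± SD (n = 3). Lif and Socs3 have 1 high RNA, Ang1 replicate 2, at 7.80 and 8.94, and both Stat3 probe sets are lowest in untreated replicate 2, at 7.25 and 6.49.

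Il6r, the ligand-binding alpha chain (1386987_at), also lay below the filter. Its log2 level was 5.91, 6.20 and 5.82 after VEGF, 6.22, 4.90 and 6.40 after Ang1, and 5.91, 6.01 and 5.55 in untreated rings. The groups overlapped, and the lowest value was that of Ang1 replicate 2. The group means, 5.97 ± 0.20, 5.84 ± 0.82 and 5.82 ± 0.24 in the same order (SD, n = 3), were closer to each other than the RNAs within the Ang1 group.

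Il6st, the gene of gp130, had 4 probe sets, and they did not show 1 pattern. The probe set 1371926_at was the steadiest. Its log2 level was 10.55, 10.54 and 10.76 after VEGF, 10.85, 10.45 and 11.12 after Ang1, and 10.53, 10.50 and 11.09 in untreated rings. All 9 RNAs lay within 0.67 log2 units, and the groups overlapped. The difference from untreated rings was -0.09 ± 0.27 for VEGF and 0.10 ± 0.27 for Ang1 (SE, n = 3 per group), with 95% intervals of -0.69 to 0.51 and -0.50 to 0.70.

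The probe set 1373140_at of Il6st read 8.85, 9.32 and 9.02 after VEGF, 8.92, 9.14 and 9.28 after Ang1, and 8.76, 8.28 and 9.02 in untreated rings. Untreated replicate 2 was the lowest of the 9, and the other 8 lay within the range of 8.76 to 9.32. The differences were 0.37 ± 0.29 for VEGF and 0.43 ± 0.29 for Ang1 (SE), and 0.17 and 0.22 without both libraries that stand apart.

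The third, 1370957_at, was the most variable of the tested members. It read 10.46, 10.21 and 9.60 after VEGF, 10.89, 6.88 and 10.95 after Ang1, and 9.73, 7.94 and 10.10 in untreated rings. Ang1 replicate 2 and untreated replicate 2 were the lowest, and the 9 RNAs spanned 4.07 log2 units, against 1.35 in the 7 without these libraries. In deposited signal the same RNAs had 160.0 and 195.1, and the other 7 had 733.1 to 1938. With all RNAs the differences were 0.83 ± 0.96 for VEGF, 0.31 ± 0.96 for Ang1, and 0.52 ± 0.96 for VEGF against Ang1 (SE). Without both libraries Ang1 replicates 1 and 3 lay above the untreated RNAs by 0.99 (limma, unadjusted p = 0.0123, adjusted p = 0.998), and VEGF lay below Ang1, at -0.82 (unadjusted p = 0.0203, adjusted p = 1.00). Under the same setting the Ang1 difference was 0.17 in 1371926_at and 0.22 in 1373140_at.

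On array B the fourth probe set of Il6st, 1383489_at, lay below the filter and was not tested. It read 7.91, 7.49 and 5.20 after VEGF, 5.59, 5.58 and 6.56 after Ang1, and 6.71, 5.01 and 7.35 in untreated rings. VEGF replicates 1 and 2 were the highest and untreated replicate 2 the lowest. The groups overlapped, and within the VEGF group the RNAs spread by an SD of 1.46.

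**Figure D2:**
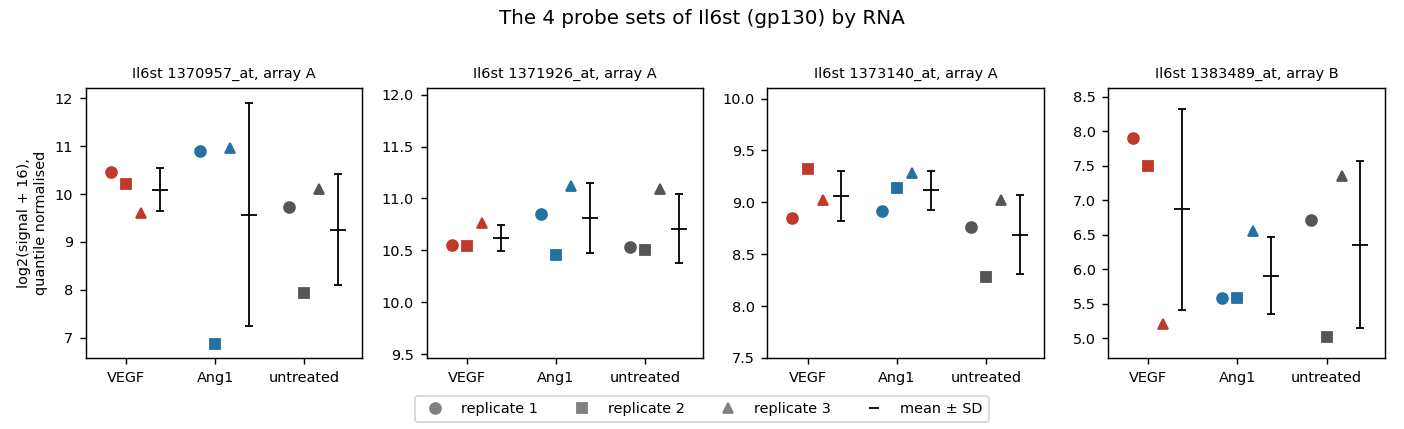
Log2 level (vertical axis, log2 of signal + 16, quantile normalised) of the 4 probe sets of Il6st in VEGF, Ang1 and untreated rings. Each symbol is 1 RNA, its shape gives the replicate, and bars are mean ± SD (n = 3). The 9 RNAs of 1371926_at stay within 0.67 log2 units, while Ang1 replicate 2 and untreated replicate 2 drop to 6.88 and 7.94 in 1370957_at.

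Stat3, the transcription factor through which gp130 acts, was read by 2 tested probe sets. The first, 1370224_at, had log2 levels of 8.82, 8.68 and 9.96 after VEGF, 9.88, 8.12 and 9.65 after Ang1, and 9.30, 7.25 and 9.55 in untreated rings. The second, 1371781_at, had 7.85, 7.99 and 8.38 after VEGF, 7.87, 6.98 and 8.42 after Ang1, and 8.29, 6.49 and 7.62 in untreated rings. Both probe sets were lowest in untreated replicate 2 and second lowest in Ang1 replicate 2, and all groups overlapped.

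For Stat3 the VEGF difference was 0.45 ± 0.66 in 1370224_at and 0.60 ± 0.48 in 1371781_at, and the Ang1 difference was 0.51 ± 0.66 and 0.29 ± 0.48 (SE, n = 3 per group). The 95% interval of each included 0. Without both libraries that stand apart the VEGF difference of 1370224_at was -0.29 and that of 1371781_at 0.12, and the Ang1 differences were 0.33 and 0.20. The direction of the VEGF difference in 1370224_at thus rested on untreated replicate 2, without which it was -0.27. The arrays measure Stat3 transcript and not its phosphorylation.

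Socs3, the feedback inhibitor (1369584_at), was the only tested member whose Ang1 values all lay above the untreated ones. Its deposited signals were 77.7, 103.3 and 99.5 after VEGF, 96.2, 442.2 and 104.6 after Ang1, and 77.9, 74.8 and 70.5 in untreated rings. Ang1 replicate 2 stood far above the other 8, which lay between 70.5 and 104.6, and Ang1 replicates 1 and 3 overlapped the VEGF-treated rings. Among all probe sets of array A, groups did not overlap in 9.09% for Ang1 against untreated, with Ang1 higher in 3.52%. For VEGF against untreated the share was 8.38% and for VEGF against Ang1 8.01%, and no tested member was among them.

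The mean log2 level of Socs3 was 6.77 ± 0.12 after VEGF, 7.58 ± 1.19 after Ang1 and 6.67 ± 0.06 in untreated rings (SD, n = 3). Ang1 exceeded untreated by 0.91 ± 0.49 (SE, limma, unadjusted p = 0.0895, adjusted p = 0.951). It was 0.23 with Ang1 replicate 2 left out (unadjusted p = 0.347) and 0.25 with untreated replicate 2 left out as well. VEGF differed from untreated by 0.10 ± 0.49 and from Ang1 by -0.81 ± 0.49 (SE), the last being -0.13 without Ang1 replicate 2. Over the 7 other RNAs Socs3 spanned 0.40 log2 units, the smallest span of any member, against 2.34 over all 9. Its levels in those 7, 6.61 to 7.01, lay near the filter of 6.52.

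**Figure D3:**
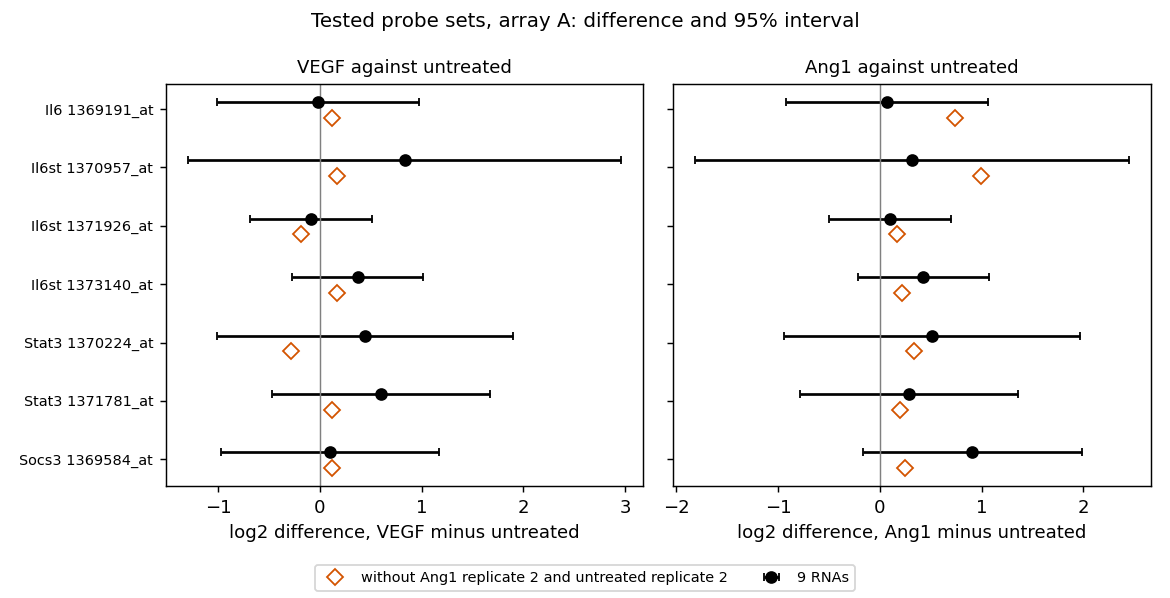
Difference from untreated rings (horizontal axis, log2 units) of the 7 tested probe sets after VEGF (left) and after Ang1 (right). Filled circles with bars are the estimates over 9 RNAs with 95% intervals, and open diamonds are the estimates without Ang1 replicate 2 and untreated replicate 2. Every interval includes 0, and the diamond of Socs3 after Ang1 lies at 0.25, against 0.91 over all RNAs.

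Over the 7 tested probe sets 5 were higher and 2 lower after VEGF, 7 were higher after Ang1, and 2 were higher and 5 lower in VEGF against Ang1. Of all probe sets on array A 49.1% were higher after VEGF, 46.7% after Ang1 and 52.5% in VEGF against Ang1. Of the 7, 3 belong to Il6st and 2 to Stat3, so they are not independent of each other, and the 7 directions after Ang1 share the same RNAs. With untreated replicate 2 left out 4 of the 7 Ang1 differences were below 0, those of Il6st 1370957_at (-0.34), Il6st 1371926_at (-0.0049), Stat3 1370224_at (-0.21) and Stat3 1371781_at (-0.20). With Ang1 replicate 3 left out, which does not stand apart, 4 of the 7 were also below 0, those of Il6 (-0.38), Il6st 1370957_at (-0.36), Il6st 1371926_at (-0.061) and Stat3 1371781_at (-0.041).

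A wider list of 90 genes of the pathway was read from the same fit. The list was chosen with earlier results of these data known, so its counts cannot test for an excess over all probe sets. Of the 90 genes, 47 had a tested probe set on array A and 14 on array B, taking the brightest per gene. On array A 35 were higher and 12 lower after VEGF, with a median difference of 0.25, beside -0.01 over all probe sets. After Ang1 31 were higher and 16 lower, with a median of 0.15, beside -0.03. Among all probe sets of array A 49.1% were higher after VEGF and 46.7% after Ang1. On array B 8 were higher and 6 lower in either comparison, where 49% of all probe sets were higher after VEGF and 49.2% after Ang1. None passed the adjusted threshold. At an unadjusted p below 0.05 there were 4 after VEGF and 6 after Ang1 on array A, all higher, as were 0.599% and 1.08% of all probe sets of that array. Among the 6, Tnf, Il1a and Junb had untreated means below the filter, so they passed it through their treated RNAs. On array B there were 0 after VEGF and 1 after Ang1, which was higher, where 0.72% and 10.5% of all probe sets reached that p and 4.46% did so with Ang1 higher. In VEGF against Ang1 1 was higher and 2 were lower at that p on array A, beside 0.956% and 1.03% of all probe sets. On array B 1 was lower, beside 4.59% of all probe sets, and 8.48% reached that p in either direction. The adjusted threshold called 0% of the 9166 probe sets tested on array B in each comparison. With replicate number as a block the 4 genes after VEGF became 5, and the probe sets of array A at that p numbered 297 in place of 158. Leaving out 1 library moved these counts. After VEGF 2 genes were left without VEGF replicate 1, untreated replicate 2 or untreated replicate 3, and 1 without VEGF replicate 2. After Ang1 there were 15 with Ang1 replicate 2 left out, and 10 with untreated replicate 2 left out as well. The count of all probe sets of array A at that p moved too. Over the alternatives it ran from 87 to 800 after VEGF and from 176 to 1133 after Ang1, beside 158 and 303 in the main fit.

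Among the roles on array A, the group of upstream inducers and genes of Il6 transcription had the largest Ang1 median, 0.91 over 7 tested genes. Of these 5 were higher and 2, the NF-kB subunit genes Nfkb1 and Rela, were lower. The higher ones include the NF-kB inhibitor gene Nfkbia and the mRNA decay gene Zfp36. At an unadjusted p below 0.05 were 4 after Ang1, all higher, as were 1.08% of all probe sets of array A. The 4 were Il1b, Il1a, Tnf and Zfp36. Of these, Tnf and Il1a had untreated means of 5.74 and 6.29, below the filter of 6.52, and passed it through their treated RNAs. After VEGF all 7 were higher, with a median of 0.25. Of them 2 were at that p, as were 0.599% of all probe sets with VEGF higher. At any p, 49.1% of all probe sets of array A were higher after VEGF and 46.7% after Ang1. Il1b, the interleukin-1 beta gene (1398256_at), read 8.47, 8.32 and 7.86 after VEGF, 8.89, 8.40 and 8.81 after Ang1, and 6.85, 7.81 and 7.19 in untreated rings. All treated RNAs lay above all untreated ones, as in 3.59% of the probe sets of array A for VEGF and 3.52% for Ang1. The difference was 0.94 ± 0.33 for VEGF (SE, limma, unadjusted p = 0.0163, adjusted p = 1.00) and 1.42 ± 0.33 for Ang1 (unadjusted p = 0.00132, adjusted p = 0.951).

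The values of Tnf, Il1a, Zfp36, Ccl2 and, between the treatments, Jak3 were chosen for naming after they had been seen. Tnf, the tumour necrosis factor gene (1391384_at), read 7.10, 7.45 and 6.27 after VEGF, 8.19, 6.67 and 8.11 after Ang1, and 6.21, 5.66 and 5.35 in untreated rings. All treated RNAs were above the untreated ones, VEGF replicate 3 by little. Such a separation was seen in 3.59% of the probe sets of array A for VEGF and 3.52% for Ang1. The untreated mean of Tnf, 5.74, lay below the filter of 6.52, so Tnf was kept for its treated RNAs. The difference was 1.20 ± 0.47 for VEGF (unadjusted p = 0.0275, adjusted p = 1.00) and 1.92 ± 0.47 for Ang1 (SE, limma, unadjusted p = 0.00192, adjusted p = 0.951). With array weights the Ang1 difference was 2.35 for Tnf and 1.78 for Il1b, both with an adjusted p of 0.00470 (limma). Tnf also passed with the replicate block and both libraries that stand apart left out, at 2.44 (limma, adjusted p = 0.0471). Over all alternatives the adjusted p after Ang1 ran up to 0.993 for Tnf and 0.998 for Il1b. The mean log2 level of 9 macrophage markers was 9.01, 8.72 and 9.16 after VEGF, 8.86, 8.18 and 8.73 after Ang1, and 9.01, 7.73 and 7.82 in untreated rings. It was lowest in untreated replicates 2 and 3 and as high in untreated replicate 1 as after VEGF, and its part in Il1b, Tnf and Ccl2 was not tested.

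Zfp36 encodes tristetraprolin, which speeds the decay of cytokine mRNAs such as that of Tnf. It read 7.60, 7.52 and 6.89 after VEGF, 8.02, 8.60 and 8.09 after Ang1, and 7.24, 7.14 and 6.90 in untreated rings. The 3 Ang1 RNAs lay above all others, and the VEGF and untreated RNAs overlapped. Ang1 lay above untreated in 3.52% of the probe sets of array A, and the share above both other groups was not counted. The Ang1 difference of Zfp36 was 1.14 ± 0.30 (SE, limma, unadjusted p = 0.00328, adjusted p = 0.951), and VEGF lay below Ang1, at -0.90 ± 0.30 (unadjusted p = 0.0130, adjusted p = 0.973). Il1a, the interleukin-1 alpha gene, had the same order. It differed by 0.91 ± 0.30 for Ang1 (SE, limma, unadjusted p = 0.0119, adjusted p = 0.951). For VEGF against Ang1 it differed by -0.67 ± 0.30 (unadjusted p = 0.0485). Its mean was 6.29 in untreated rings, below the filter of 6.52, and 6.53 after VEGF, so it was kept largely for its Ang1 values. On array B Zc3h12a, whose product Regnase-1 degrades Il6 mRNA, differed by 0.77 ± 0.69 for VEGF and 0.57 ± 0.69 for Ang1.

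**Figure D4:**
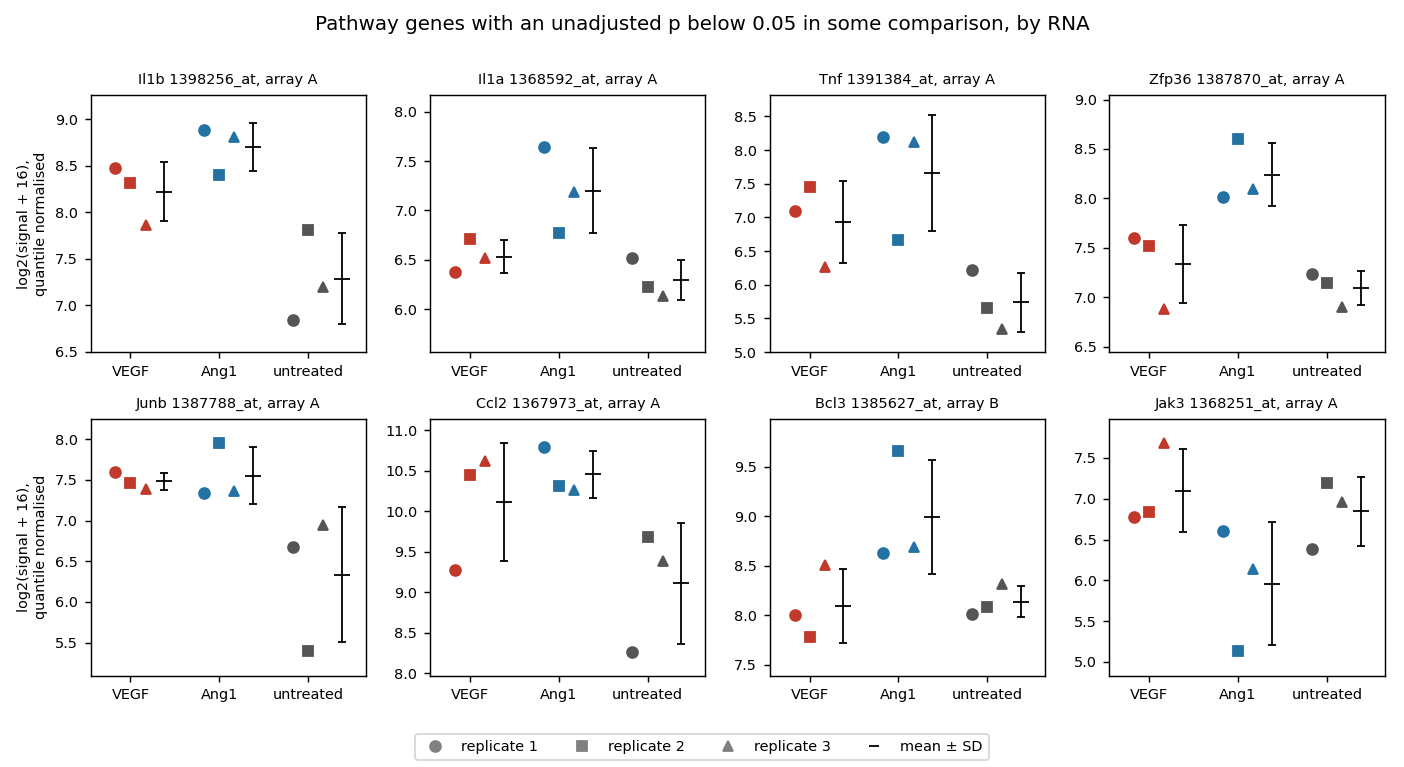
Log2 level (vertical axis, log2 of signal + 16, quantile normalised) of 8 pathway genes in VEGF, Ang1 and untreated rings. Each symbol is 1 RNA, its shape gives the replicate, and bars are mean ± SD (n = 3). The 6 treated RNAs of Il1b and Tnf lie above the 3 untreated ones, and in Zfp36 all 3 Ang1 RNAs and 2 of the VEGF RNAs do.

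Among STAT3 targets and genes of the IL-6 response, 15 of 20 tested on array A were higher after VEGF and 14 after Ang1. Their medians were 0.25 and 0.20, and 49.1% and 46.7% of all probe sets of array A were higher. Junb, an AP-1 transcription factor gene that IL-6 induces within minutes in cell lines, read 7.60, 7.47 and 7.38 after VEGF, 7.33, 7.95 and 7.36 after Ang1, and 6.67, 5.39 and 6.95 in untreated rings. All treated RNAs were above the untreated ones, of which replicate 2 was far lowest. The share of array A probe sets with this order was 3.59% for VEGF and 3.52% for Ang1. The untreated mean of Junb, 6.34, lay below the filter of 6.52. The difference was 1.15 ± 0.40 for VEGF and 1.21 ± 0.40 for Ang1 (SE, limma, unadjusted p = 0.0159 and 0.0118, adjusted p = 1.00 and 0.951). Without both libraries that stand apart it was 0.71 and 0.56.

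Ccl2, the gene of a monocyte-attracting chemokine, averaged 10.1 ± 0.73 after VEGF, 10.5 ± 0.29 after Ang1 and 9.11 ± 0.74 in untreated rings (SD, n = 3). The difference was 1.00 ± 0.45 and 1.34 ± 0.45 for the 2 treatments (SE, limma, unadjusted p = 0.0467 and 0.0122, adjusted p = 1.00 and 0.951). Without untreated replicate 1 the VEGF difference of Ccl2 was 0.58. Bcl3, an IkB-family gene on array B, read 7.78 to 8.51 after VEGF, 8.63 to 9.66 after Ang1 and 8.01 to 8.31 in untreated rings. After quantile normalisation the Ang1 RNAs of Bcl3 lay above all others, most of all replicate 2. They lay above the untreated ones as in 8.71% of the probe sets of array B. In deposited signal Ang1 replicate 3 was the lowest of all RNAs, at 169.8, on an array with a trimmed mean signal of 94.8. The Ang1 difference of Bcl3 was 0.85 ± 0.36 (limma, unadjusted p = 0.0373, adjusted p = 0.467) and 0.54 without Ang1 replicate 2 (unadjusted p = 0.0961). Bcl6, a repressor gene, differed by -0.23 ± 0.30 after VEGF on array B.

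Of 10 kinases, STATs and adaptors tested on array A 8 were higher after VEGF, with a median of 0.25. After Ang1 5 were higher, with a median of -0.03. The shares over all probe sets of that array were 49.1% and 46.7%. The kinase gene Akt1 differed by 0.47 ± 0.38 after VEGF, and by 0.17 without untreated replicate 2. Jak3, a kinase of the common gamma chain receptors, differed by -0.88 ± 0.43 after Ang1 (-0.48 without Ang1 replicate 2), and VEGF lay above Ang1 by 1.14 ± 0.43 (SE, limma, unadjusted p = 0.0229, adjusted p = 0.973). Its Ang1 mean, 5.96, lay below the filter of 6.52. The lowest value of Jak3, 5.13, was that of Ang1 replicate 2, without which the last difference was 0.74. On array B Jak2, a kinase bound to gp130, differed by 0.47 ± 0.54 after Ang1, and by -0.12 without Ang1 replicate 3. Sos1, a Ras exchange factor, differed there by 0.41 ± 0.36 after VEGF. The array A probe sets of these genes differed by 0.08 ± 0.52 for Jak2 after Ang1 and -0.14 ± 0.33 for Sos1 after VEGF.

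Of the inhibitors tested on array A 4 of 6 were higher after VEGF and 3 of 6 after Ang1, beside 49.1% and 46.7% of all probe sets. None of these inhibitors reached an unadjusted p of 0.05. The phosphatase gene Ptpn6 differed by 0.53 ± 0.44 after VEGF and 0.55 ± 0.44 after Ang1. The last value was 0.23 without Ang1 replicate 1, 0.32 without Ang1 replicate 3 and 1.12 without Ang1 replicate 2. Pias1 on array B, an inhibitor of activated STATs, differed by -0.53 ± 0.71 after VEGF, with all VEGF RNAs below the untreated ones, as in 3.92% of the probe sets of array B. After Ang1 it differed by -1.41 ± 0.71 (SE, limma, adjusted p = 0.473), and by -0.37 without Ang1 replicate 2. On the values as deposited, without quantile normalisation, it was -2.02 and passed the threshold (limma, adjusted p = 0.0265). Over the alternatives the highest adjusted p was 0.876 (limma). As deposited, Ang1 replicate 3 on array B had a trimmed mean signal of 94.8, against 249.9 in Ang1 replicates 1 and 2. After normalisation its Pias1 level was 10.89, within the untreated range of 10.79 to 11.20. The setting without normalisation called 117 probe sets of array B for Ang1 against untreated, in place of 0. The part of this array's scale in the Pias1 result was not tested.

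The remaining ligands and receptors had few tested probe sets. Ctf1, the cardiotrophin-1 gene, differed by -0.05 ± 0.36 after VEGF and 0.27 ± 0.36 after Ang1. Ebi3, a subunit of interleukin-27, differed on array B by 0.23 ± 0.45 and -0.38 ± 0.45. Il11ra1, the interleukin-11 receptor chain, differed by -0.29 ± 0.48 after VEGF, and Cntfr, the ciliary neurotrophic factor receptor chain, by 0.23 ± 0.44 after Ang1. Adam17, the protease that sheds IL-6R from cells, differed by 0.26 ± 0.30 and 0.24 ± 0.30. Each of these differences was smaller than its SE.

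**Figure D5:**
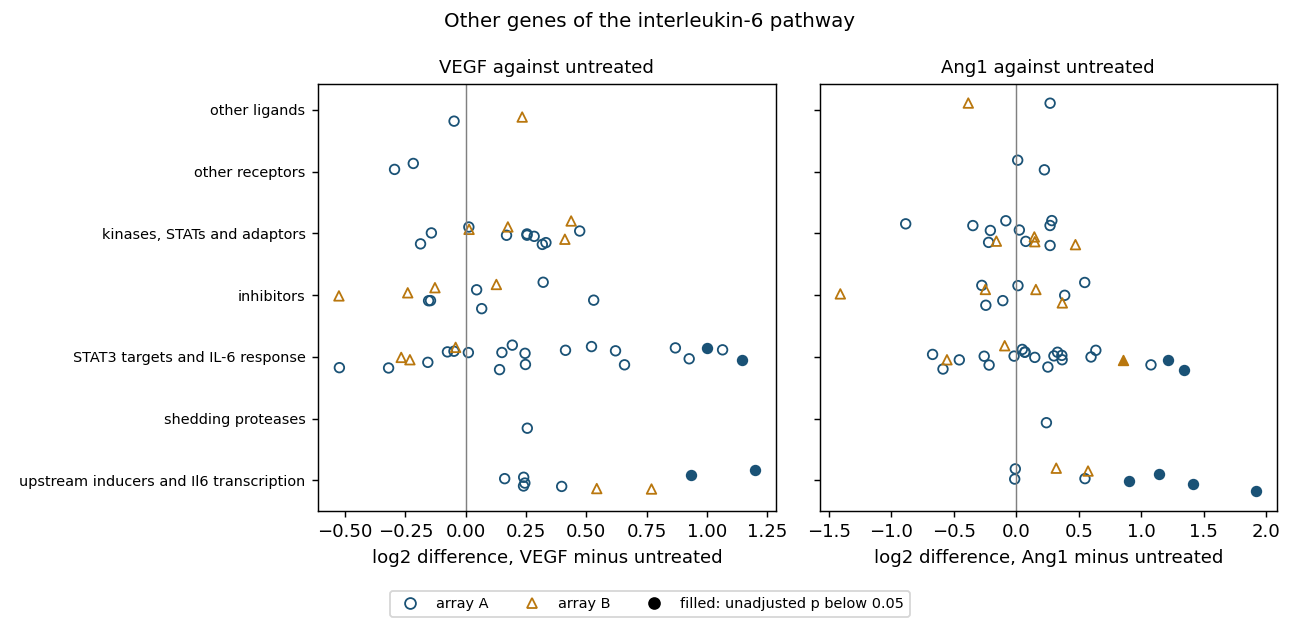
Difference from untreated rings (horizontal axis, log2 units) of the tested genes of the wider pathway list, by role (vertical axis), after VEGF (left) and after Ang1 (right). Circles are genes on array A, triangles on array B, and filled symbols have an unadjusted p below 0.05. The filled symbols number 4 after VEGF and 7 after Ang1. They lie in the group of upstream inducers and Il6 transcription and among the response genes.

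The genes whose levels ran most like those of Il6 over the 9 RNAs were Kat14 (Pearson r = 0.89), Crmp1 (r = 0.88) and Rgs12 (r = 0.87), with r = 0.81, 0.80 and 0.83 over the 7 RNAs without both libraries that stand apart. For Socs3 they were Engase (r = 0.99), Cilk1 (r = 0.98) and Mllt1 (r = 0.98). Over the 7 RNAs their r was 0.55, 0.30 and 0.47, and with Ang1 replicate 2 alone left out it was 0.53, 0.30 and 0.50. With untreated replicate 2 alone left out it was 0.99, 0.98 and 0.98, so the likeness to Socs3 rested on Ang1 replicate 2. The points share arrays and normalisation, and the genes were picked from 9520 probe sets for their r. Lif had no tested probe set and no such genes were sought.

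Markers of the cells that a ring can hold were read beside the members. Fibroblast, endothelial and macrophage markers were all above the filter on array A, and 6 of 7 smooth muscle markers were. The mean log2 level of the 9 macrophage markers, given by RNA above, averaged 8.96 after VEGF, 8.59 after Ang1 and 8.19 in untreated rings. The 6 endothelial markers averaged 7.82 to 8.33 after VEGF, 6.67 to 8.12 after Ang1 and 7.35 to 8.03 in untreated rings, lowest in Ang1 replicate 2. The 6 fibroblast markers averaged 12.1 to 12.2, 12.0 to 12.3 and 12.0 to 12.1 in the same order, and the 7 smooth muscle markers 7.89 to 8.23, 7.44 to 8.41 and 7.20 to 8.66. Of 3 neutrophil markers 0 passed the filter, of 5 lymphocyte markers 1 did and of 4 mast cell markers 2 did. No marker was listed at 0. The part of these markers in the member values was not tested.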

How the data were processed

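Per the labels, each of 9 RNAs was hybridised to both array types, 18 samples in 3 groups. The authors deposited 1 linear intensity per probe set and array, and the submitters' processing notes name MAS5, its version not given in the sources used here. They were taken to log2(signal + 16) from the deposited intensity, quantile normalised within an array type, and filtered at the 40th percentile of the mean, leaving 9520 probe sets on array A (of 15923) and 9166 on array B (of 15333) after 57 control probe sets each were dropped. The filter lay at 6.52 and 6.71 log2 units. Groups were compared with limma 3.58.1 in R 4.3.3, with intensity trend and Benjamini-Hochberg adjustment within the array type. The fit was checked on simulated data with independent noise, less spread than the arrays and large shifts. No simulated library stood apart, so the check says nothing of a fit with such libraries. The number of arrays limits the precision. Ang1 replicate 3 on array B had a trimmed mean signal of 94.8, against about 250 on the other arrays. The members, the wider list and the markers were chosen with earlier results of these data known. Named from the wider list were, per role and comparison with untreated rings, the gene of largest moderated t. Same-numbered RNAs deviated together, with correlations for each treatment against untreated from 0.145 up to 0.489 (array A) and from 0.143 up to 0.288 (array B), and the design text describes RNAs split from single animals, so a replicate block was also fitted. Between VEGF and Ang1 replicates 2 and 3 did not, at -0.019 and -0.147 (array A) or -0.085 and -0.214 (array B). The highest correlation, 0.489, was that of Ang1 replicate 2 with untreated replicate 2, the libraries that stand apart. These values do not settle whether a number stands for an animal across all groups. The block, fitted over all 9 RNAs, assumes that it does.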

Additional observations from a re-analysis of the deposited data

How the results depend on the processing

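Across 20 alternatives 378 of 420 recomputed differences of the 7 tested probe sets kept their direction and 42 turned, and of 180 of the 3 below the filter 16 turned. None passed the adjusted threshold (limma, lowest adjusted p = 0.108, for Stat3 1370224_at in VEGF against Ang1). The lowest unadjusted p over the alternatives was 0.0042 there, 0.0254 for Socs3 after Ang1 and 0.0433 for Il6 after Ang1 (limma). After VEGF it was 0.0691, for Stat3 1371781_at. That no member test had an unadjusted p below 0.05 thus held for the main fit and not for every alternative. The settings with most turns among the tested were without Ang1 replicate 3 (7 of 21), without untreated replicate 2 (6) and median centring (5), and the cause was not tested. Without both libraries that stand apart (Ang1 replicate 2 and untreated replicate 2), Il6 after VEGF was 0.12 and Stat3 1370224_at after VEGF -0.29. In the same setting VEGF against Ang1 was -0.82 in Il6st 1370957_at and -0.074 in Stat3 1371781_at. With the replicate block as well these were 0.38, -0.047, -0.88 and -0.030. The replicate block alone, which pairs RNAs of 1 number, changed no call and left 0 probe sets past the adjusted threshold. For VEGF against Ang1, where replicates 2 and 3 did not deviate together, it gave 410 probe sets of array A an unadjusted p below 0.05, in place of 189. Ctf1 after VEGF was 0.051 without both libraries, and Cntfr after Ang1 was -0.039, with and without the block. Values as deposited gave 0.16 for Il6 after VEGF, -0.19 for Il6st 1371926_at after Ang1, 0.12 for Ctf1 after VEGF and -0.26 for Jak2 after Ang1. Median centring gave 0.0061 for Il6 after VEGF, -0.50 for Il6st 1371926_at, -0.11 for Adam17 and -0.17 for Jak2 after Ang1. For VEGF against Ang1 it gave 0.11 and 0.15 for Il6st 1371926_at and 1373140_at, and 0.023 for Stat3 1370224_at. Array weights gave -0.40 for Stat3 1370224_at, 0.26 for Ctf1 and -0.049 for Ebi3 after VEGF, -0.11 for Cntfr after Ang1, and -0.59 and 0.18 for Il6st 1370957_at and 1373140_at in VEGF against Ang1. Probe sets past the adjusted threshold numbered 0 in each comparison. With array weights they were 6 on array A and 2 on array B for Ang1 against untreated, and 24 and 8 for VEGF against Ang1. As deposited, array B gave 117 and 25, with Ang1 replicate 3 left at its low trimmed mean signal of 94.8. The block without both libraries gave 1 for Ang1 on array A. Genes of the wider list on array A at an unadjusted p below 0.05, 4 after VEGF and 6 after Ang1, numbered 2 and 3 with the filter at the 60th percentile and 6 and 19 with array weights. All probe sets of array A at that p rose as well with array weights, to 1133 after Ang1 in place of 303. Leaving out 1 RNA at a time, the difference after VEGF ran over -0.16 to 0.23 for Il6, -0.19 to 0.10 for Il6st 1371926_at, -0.27 to 0.87 for Stat3 1370224_at, -0.23 to 0.29 for Ctf1, -0.84 to 0.037 for Il11ra1 and -0.10 to 0.48 for Ebi3. After Ang1 it ran over -0.38 to 0.59 for Il6, -0.36 to 1.69 for Il6st 1370957_at, -0.061 to 0.29 for 1371926_at, -0.21 to 1.10 and -0.20 to 0.70 for Stat3 1370224_at and 1371781_at, -0.25 to 0.50 for Cntfr, -0.12 to 1.22 for Jak2 and -0.023 to 1.56 for Zc3h12a. For VEGF against Ang1 it ran over -0.61 to 0.36 for Il6, -0.83 to 1.20 for Il6st 1370957_at, -0.18 to 0.053 for 1373140_at, and -0.63 to 0.27 and -0.074 to 0.64 for Stat3 1370224_at and 1371781_at. Of the other named genes it ran over 0.0044 to 0.47 for Adam17, 0.16 to 0.74 for Sos1 and -0.44 to -0.10 for Bcl6 after VEGF. Signal limits Lif, Il6r and Il6st 1383489_at, which lay below the filter.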
